A study of Mus musculus with 6 samples.

Results

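The genes described here carry lipid from the blood into the heart. They are 9 genes of 14133 in the deposited table: the lipoprotein receptors Lrp8 and Vldlr, the lipoprotein lipase axis Lpl, Gpihbp1 and Angptl4, the fatty acid transporters Cd36 and Slc27a1, and the fatty acid binding proteins Fabp3 and Fabp4. They were picked by gene name, and all 9 were found and had a high enough level to be tested. The list was chosen by their roles with the contrast between the groups already known, so the values of these 9 genes in that contrast are given as a description, with no p-value. Heart RNA of mice of the C57BL/6 strain, aged 1 month, was sequenced in 6 libraries. In 3 of them (replicates 6, 7 and 8) the mice carried floxed Trx1 alleles together with a Cre recombinase transgene named MHC-Cre in the labels and Myh6-Cre in the design text, which is meant to delete the gene in cardiomyocytes. In the other 3 (replicates 3, 4 and 5) the mice carried the same floxed alleles without Cre. The control mice therefore lack the Cre transgene as well as the deletion, and effects of Cre and of the deletion cannot be told apart. The labels do not say whether each library came from a separate animal.

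Working heart muscle draws most of its energy from fatty acids. Part of these arrive as triglyceride inside lipoproteins. Lipoprotein lipase, made by cardiomyocytes and carried to the capillary lumen by the endothelial protein GPIHBP1, splits the triglyceride, and ANGPTL4 inhibits the enzyme. Receptors of the LDL receptor family bind whole or remnant particles. Free fatty acids then cross the endothelium and the muscle membrane with the help of CD36 and FATP1, the product of Slc27a1, and are held in the cytosol by binding proteins, of which FABP3 is the heart form and FABP4 is known from adipocytes and capillary endothelium.

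Lrp8 was the member that stood apart. Its level averaged 4.24 ± 0.87 log2 CPM in hearts labelled knockout and 0.11 ± 1.16 log2 CPM in control hearts (SD, n = 3 each), which is 17.5-fold higher in hearts labelled knockout. The other members differed by 0.05 to 0.72 in size on the log2 scale. Vldlr, the closest relative of Lrp8 in the list, had nearly the same level in both groups. Slc27a1, Lpl, Fabp4 and Fabp3 were lower in every library labelled knockout than in any control library, at 0.669 to 0.797 of the control level. The groups also did not overlap for 30.7% of all 12516 tested genes. For Lpl and Fabp3 the nearest libraries of the groups were almost level, at 11.42 against 11.43 and 10.71 against 10.75 log2 CPM.

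Promoter sequences are shown for the receptor pair and for Slc27a1, because Lrp8 and Slc27a1 are the members past the test described below and Vldlr is the receptor that was level between the groups. The most upstream start of Lrp8 is printed, and the others printed are, for each gene, the start with the most matches to the motifs below, so they were chosen after the search. The table of RefSeq promoters (GRCm38.p6, the assembly of mm10) held 5 of the 9 genes, namely Lrp8, Vldlr, Cd36, Fabp3 and Slc27a1. Each sequence covers 250 bases before to 50 bases after an annotated start and is printed 5′ to 3′ on the plus strand, on which all 3 genes lie. Capitals mark matches on either strand to 5 short motifs: ACGTG (core of the hypoxia response element, also the inner part of the CACGTG E-box), AGGTCA (nuclear receptor core site), TGACTCA (AP-1), CATTCC (TEAD) and TGATGNAA (ATF4).

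Lrp8, most upstream of 3 starts, chr4:107802635-107802934: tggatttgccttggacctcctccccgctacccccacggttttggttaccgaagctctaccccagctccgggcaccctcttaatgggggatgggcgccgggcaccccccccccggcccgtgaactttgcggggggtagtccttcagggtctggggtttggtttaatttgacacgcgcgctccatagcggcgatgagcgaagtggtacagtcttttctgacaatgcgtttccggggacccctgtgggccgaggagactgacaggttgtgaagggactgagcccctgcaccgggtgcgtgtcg

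Lrp8, most downstream start, chr4:107830703-107831002: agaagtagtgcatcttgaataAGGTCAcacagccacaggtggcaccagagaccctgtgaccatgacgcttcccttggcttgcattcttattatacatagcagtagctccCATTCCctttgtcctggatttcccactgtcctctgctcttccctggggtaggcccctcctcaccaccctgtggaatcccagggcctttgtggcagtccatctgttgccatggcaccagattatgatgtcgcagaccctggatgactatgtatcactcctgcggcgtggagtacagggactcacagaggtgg

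Vldlr, downstream of 2 starts, chr19:27216770-27217069: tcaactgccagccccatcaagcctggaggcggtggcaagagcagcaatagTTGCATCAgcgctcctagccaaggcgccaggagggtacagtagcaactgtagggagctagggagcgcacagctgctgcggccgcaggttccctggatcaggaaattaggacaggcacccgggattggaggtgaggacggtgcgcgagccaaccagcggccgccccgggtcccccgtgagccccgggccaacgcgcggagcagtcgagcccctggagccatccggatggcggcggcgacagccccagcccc

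Slc27a1, most downstream of 3 starts, chr8:71570344-71570643: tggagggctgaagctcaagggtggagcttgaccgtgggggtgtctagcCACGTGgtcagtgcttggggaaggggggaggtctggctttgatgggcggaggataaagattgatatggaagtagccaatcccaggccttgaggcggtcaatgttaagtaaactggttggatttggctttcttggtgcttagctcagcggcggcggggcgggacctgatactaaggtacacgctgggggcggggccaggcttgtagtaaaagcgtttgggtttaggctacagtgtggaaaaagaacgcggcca

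The most upstream Lrp8 promoter held none of the 5 motifs. The most downstream one held an AGGTCA 229 bases and a CATTCC 141 bases before the start. In the Vldlr sequence the reverse complement of TGATGNAA begins 200 bases before the start, and in the Slc27a1 sequence a CACGTG gives overlapping ACGTG matches on both strands. Of the starts not printed, the remaining one of Lrp8, the upstream one of Vldlr and 1 of Slc27a1 held none of the motifs, and the other of Slc27a1 held a CATTCC 212 bases before the start. Of 32544 promoters of this length, 19.7% held ACGTG, 16.2% AGGTCA, 14.6% CATTCC, 5.19% TGACTCA and 3.91% TGATGNAA. A match describes letters in the window and says nothing about binding.

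Levels are given as log2 CPM, the log2 of a gene's reads scaled to the depth of the library, with a small constant that sets a floor of -3.29. The reads recovered from the values came to 8347636 to 10236783 in the libraries labelled knockout and 9257984 to 13705281 in the control libraries. Txn1, the targeted gene, had 6.90 to 7.13 log2 CPM in the 3 hearts labelled knockout and 6.64 to 7.04 log2 CPM in the 3 control hearts, a log2 difference of 0.10 ± 0.15 (SE, limma adjusted p = 0.72). Because its RNA was not lower, the first group is called labelled knockout throughout. The sources used here do not name the floxed exons, and other cells of the heart contribute to the same value.

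Across the 12516 genes that averaged 0 log2 CPM or more, limma (two-sided, Benjamini-Hochberg adjusted p under 0.05) called 9.66%, with 4.79% higher and 4.87% lower in the hearts labelled knockout. Of the 9 lipid uptake genes, 2 were past this test, Lrp8 as higher and Slc27a1 as lower. The groups did not overlap for 5 of the 9, namely Lrp8, Lpl, Fabp3, Fabp4 and Slc27a1, and for 30.7% of the 12516 genes. As a median, the log2 difference was -0.23 over the 9 genes and -0.01 over the 12516. These counts are a description, since the list was made with the contrast known.

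**Figure D1:**
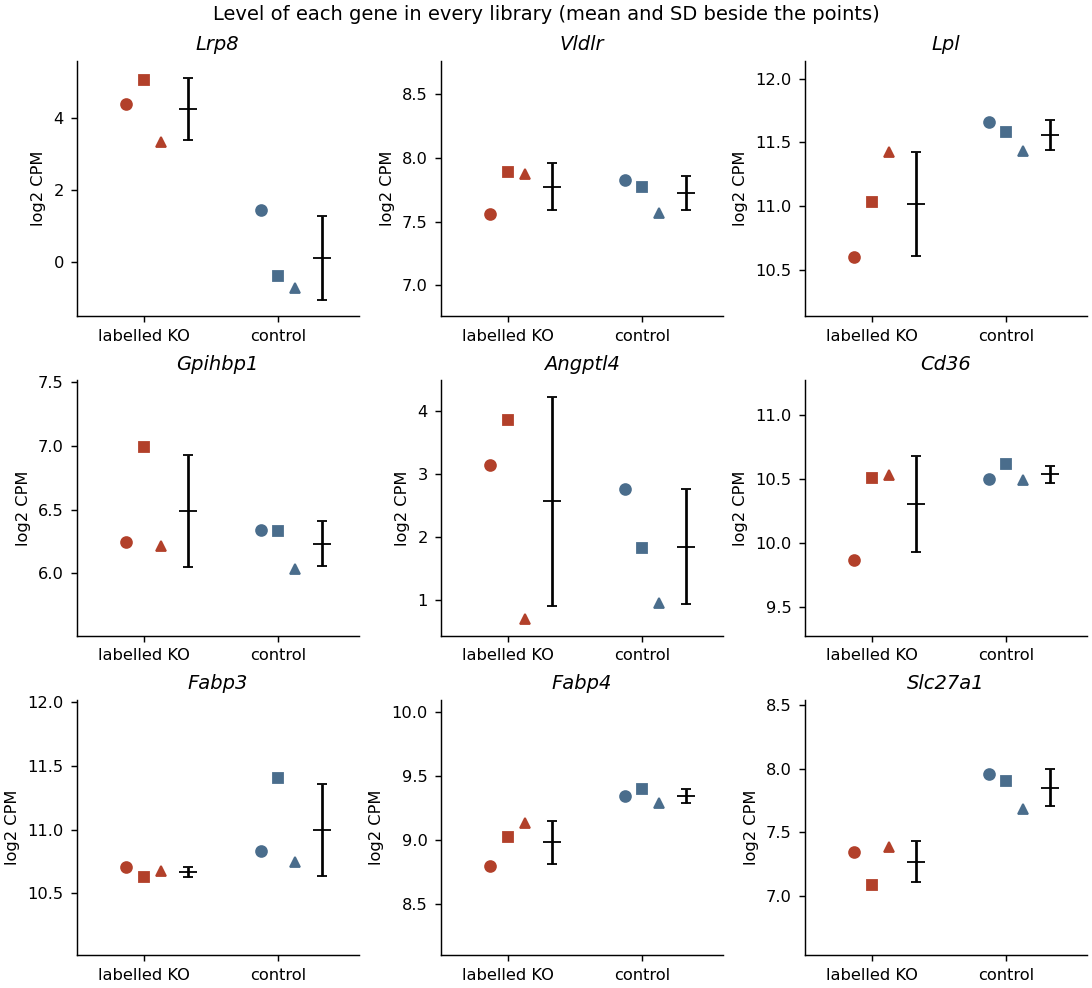
Log2 CPM of each of the 9 genes in every library, with hearts labelled knockout (replicates 6, 7 and 8 as circle, square and triangle) left of control hearts (replicates 3, 4 and 5 as circle, square and triangle), and the mean with SD beside the points. Lrp8 is the gene with the widest gap between groups, at 3.32 to 5.04 against -0.72 to 1.43 log2 CPM, while the Vldlr points of both groups lie between 7.56 and 7.89.

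Among the receptors, Lrp8 (also called apolipoprotein E receptor 2, a receptor for reelin, apolipoprotein E and selenoprotein P; chromosome 4, 107802261 to 107876840, GRCm38) had few reads in control hearts. Its values were 4.37, 5.04 and 3.32 log2 CPM in replicates 6, 7 and 8 labelled knockout, against 1.43, -0.38 and -0.72 log2 CPM in control replicates 3, 4 and 5. These rested on 200, 336 and 85 reads in the hearts labelled knockout and on 35, 6 and 5 reads in the control hearts. Every library labelled knockout was higher than every control library, with replicate 8 the lowest of its group and replicate 3 the highest of the controls. The log2 difference was 4.13 ± 0.58 (SE), and the ratio of mean CPM without the constant was 16.8. With 1 CPM added before the log in place of the small constant, the log2 difference was 3.26. It ranked 15th from the top among the 12516 tested differences. With 1 library left out the difference lay between 3.72 (without control replicate 5) and 4.79 (without control replicate 3), and Lrp8 stayed past the test in all 6 of these fits. In a fit without an intensity trend in the variance it was not past the test. These calls are a description, since the list was made with the contrast known. The annotation places antisense genes, Lrp8os1 and Lrp8os2, on the opposite strand inside Lrp8. The sources used here do not say whether reads were counted by strand, so reads of the antisense genes cannot be told apart from those of Lrp8.

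Vldlr, the very low density lipoprotein receptor (chromosome 19, 27216484 to 27254231), is known to take up triglyceride-rich particles in heart and muscle. It had 7.56, 7.89 and 7.87 log2 CPM in replicates 6, 7 and 8 labelled knockout, against 7.83, 7.77 and 7.57 log2 CPM in control replicates 3, 4 and 5. The groups overlapped, and the log2 difference was 0.05 ± 0.14 (SE). The log2 ratio of Lrp8 to Vldlr, both measured in the same library, was -3.19, -2.85 and -4.55 in the hearts labelled knockout and -6.40, -8.15 and -8.29 in control hearts. Vldlr thus kept the larger read count in all 6 libraries, and the ratio moved by 4.08 between the groups.

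The genes whose profile over the 6 libraries lay nearest to that of Lrp8 were Ctgf, a matricellular growth factor gene, Sfrp2, a secreted Wnt modulator, and Krt18, a keratin. The measure was the root mean square difference of log2 CPM after subtracting each gene's control mean, taken over 10652 genes that averaged 2 log2 CPM or more. It was 0.54, 0.58 and 0.60 for these 3 genes. Ctgf had 9.26, 10.31 and 7.95 log2 CPM in replicates 6, 7 and 8 labelled knockout and 5.65, 5.26 and 4.92 log2 CPM in control replicates 3, 4 and 5. All 3 genes shared with Lrp8 the smallest departure in replicate 8 among the hearts labelled knockout and the highest control value in replicate 3. Sfrp2 and Krt18 were highest in replicate 6, while Lrp8 and Ctgf were highest in replicate 7. The 3 genes were picked for likeness to Lrp8 over the same 6 libraries, so the shared pattern is not a separate result. For Vldlr the nearest genes were Tshz1, Foxj2 and Prkd3, at 0.04 to 0.06.

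**Figure D2:**
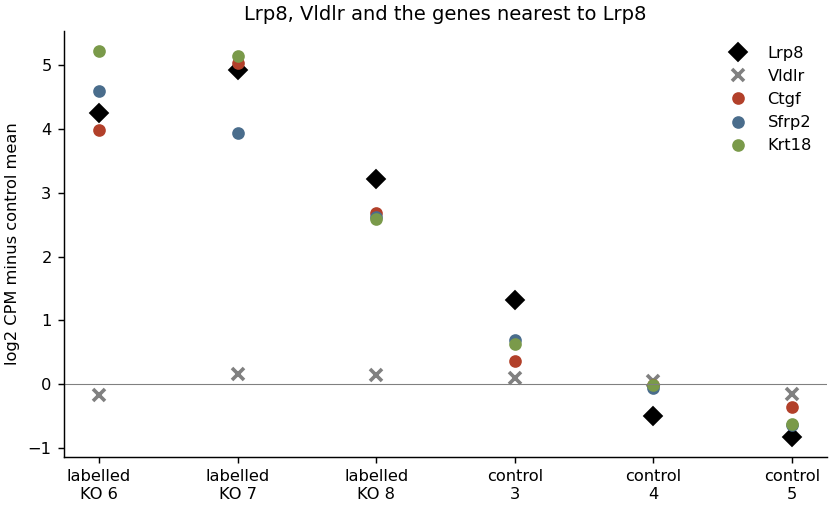
Log2 CPM minus the control mean (y axis) in each library (x axis) for Lrp8, Vldlr and the 3 genes nearest to Lrp8. Lrp8 departs by 4.26, 4.93 and 3.21 in replicates 6, 7 and 8 labelled knockout, close to Ctgf, Sfrp2 and Krt18, while Vldlr stays within 0.16 of its control mean there.

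In the lipase axis, Lpl (chromosome 8, 68880491 to 68907448) was lower in hearts labelled knockout and varied more among them. It had 10.60, 11.03 and 11.42 log2 CPM in replicates 6, 7 and 8, against 11.66, 11.58 and 11.43 log2 CPM in control replicates 3, 4 and 5. The groups did not overlap, but replicate 8 lay only just under control replicate 5. The log2 difference was -0.54 ± 0.20 (SE), and it was -0.33 without replicate 6 and -0.74 without replicate 8. Lpl was not past the test with all libraries and was past it without replicate 8 or with libraries weighted by quality. Gstm7 and Capn15 were among the 3 genes nearest to it, at 0.07 each.

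Gpihbp1 (chromosome 15, 75596628 to 75599481), the endothelial carrier of the lipase, did not follow Lpl. It had 6.25, 6.99 and 6.22 log2 CPM in replicates 6, 7 and 8 labelled knockout and 6.34, 6.33 and 6.03 log2 CPM in control replicates 3, 4 and 5. Only replicate 7 lay above all controls, and the log2 difference of 0.25 ± 0.20 (SE) became 0.00044 without it. The log2 ratio of Gpihbp1 to Lpl was -4.35, -4.04 and -5.20 in the hearts labelled knockout and -5.33, -5.25 and -5.40 in control hearts, so the ratio was higher in all 3 libraries labelled knockout. Abcc1, Dcaf10 and Adgrg1 had the profiles nearest to Gpihbp1, at 0.06 to 0.07.

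Angptl4 (chromosome 17, 33773750 to 33781830), the secreted inhibitor of the lipase, was the least steady member. It had 3.14, 3.84 and 0.69 log2 CPM in replicates 6, 7 and 8 labelled knockout, against 2.76, 1.83 and 0.94 log2 CPM in control replicates 3, 4 and 5. These rested on 85, 146 and 13 reads in the hearts labelled knockout and 90, 31 and 18 reads in control hearts. Replicates 6 and 7 lay above every control and replicate 8 below every control. The log2 difference was 0.72 ± 0.71 (SE), 0.075 without replicate 7 and 1.65 without replicate 8, and only the last of these fits put Angptl4 past the test. The genes nearest to it were Tacc3, B3gnt8 and Col4a6, at 0.34 to 0.54.

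Of the membrane transporters, Slc27a1 (chromosome 8, 71568882 to 71587302), which encodes a fatty acid transport protein with acyl-CoA synthetase activity, was lower in all 3 hearts labelled knockout. It had 7.34, 7.08 and 7.38 log2 CPM in replicates 6, 7 and 8, against 7.96, 7.90 and 7.69 log2 CPM in control replicates 3, 4 and 5. The log2 difference was -0.58 ± 0.14 (SE), or 0.669 of the control level, and it lay between -0.66 and -0.49 with 1 library left out. Slc27a1 was past the test with all libraries, and was not past it without control replicate 3, 4 or 5 or without labelled knockout replicate 7. A fit without an intensity trend in the variance also did not call Slc27a1. Its nearest genes were Ndufc1, a complex I subunit gene, Slc9a3r2 and Zbtb20, at 0.04 to 0.06.

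Cd36 (chromosome 5, 17781690 to 17888801), the broad fatty acid translocase of endothelium and muscle, had 9.87, 10.51 and 10.53 log2 CPM in replicates 6, 7 and 8 labelled knockout and 10.50, 10.62 and 10.49 log2 CPM in control replicates 3, 4 and 5. Replicate 6 alone was low, and the other 2 lay within the control range. The log2 difference of -0.23 ± 0.18 (SE) was -0.02 without replicate 6. Pop4, Clpx and Smg1 lay nearest to Cd36, at 0.03 to 0.05.

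Of the binding proteins, Fabp3 (chromosome 4, 130308595 to 130315463) had 10.71, 10.63 and 10.68 log2 CPM in replicates 6, 7 and 8 labelled knockout, against 10.84, 11.41 and 10.75 log2 CPM in control replicates 3, 4 and 5. The groups did not overlap, yet replicate 6 lay only just under control replicate 5. The log2 difference was -0.33 ± 0.18 (SE) and -0.12 without control replicate 4, which was the highest library. Mesd and Dhx57 were among the 3 genes nearest to it, at 0.08 and 0.09. A processed pseudogene, Fabp3-ps1, is annotated on chromosome 10, and the sources used here do not say how reads shared with it were counted.

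Fabp4 (chromosome 3, 10204088 to 10208576) had 8.80, 9.02 and 9.13 log2 CPM in replicates 6, 7 and 8 labelled knockout, against 9.35, 9.40 and 9.29 log2 CPM in control replicates 3, 4 and 5. The groups did not overlap, and replicate 8 was again nearest to the controls. The log2 difference was -0.36 ± 0.13 (SE), between -0.43 and -0.27 with 1 library left out, and Fabp4 was past the test only without replicate 8. The gene nearest to it was Acadl, the long-chain acyl-CoA dehydrogenase of fatty acid oxidation, at 0.02, followed by Phf12 and Morc2a. The log2 ratio of Fabp4 to Fabp3 averaged -1.69 ± 0.19 in hearts labelled knockout and -1.65 ± 0.31 in control hearts (SD, n = 3 each).

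**Figure D3:**
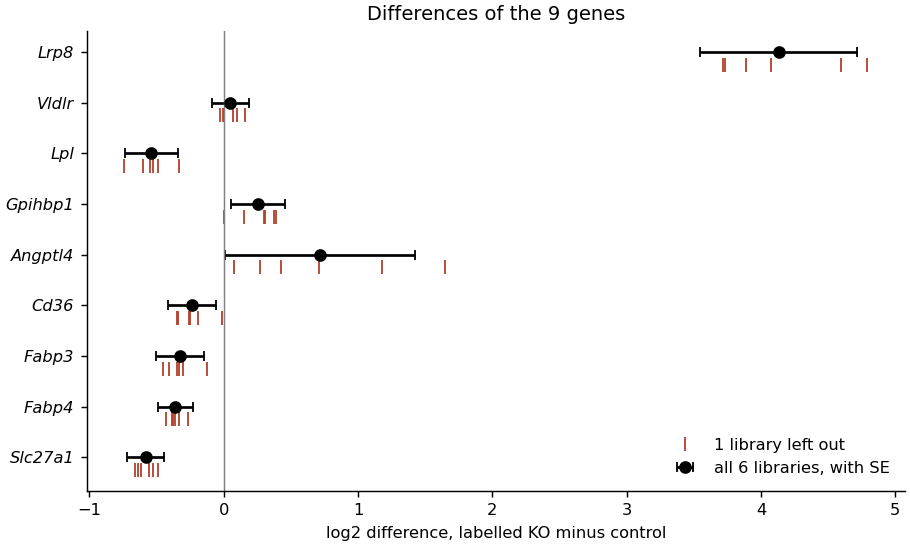
Log2 difference of each gene, hearts labelled knockout minus control hearts (x axis), with the SE of the limma fit as bars and the values with 1 library left out as ticks below. Lrp8 lies at 4.13 ± 0.58, the 8 other genes between -0.58 and 0.72, and the ticks of Angptl4 spread from 0.075 to 1.65.

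Summed over the 9 genes, lipid uptake RNA came to 5060, 6196 and 6905 CPM in replicates 6, 7 and 8 labelled knockout, against 7738, 8562 and 7010 CPM in control replicates 3, 4 and 5. All 3 sums of the hearts labelled knockout lay below all 3 control sums. The CPM of all genes, with the constant, came to 921199 to 1001290 in hearts labelled knockout and 1017500 to 1044060 in control hearts. The 9-gene sums were not rescaled to these totals. The nearest sums, of replicate 8 and control replicate 5, came from totals of 974561 and 1044060 CPM, so their order depends on the scaling. Lpl, Cd36 and Fabp3 made up 82.2% to 84.8% of the sum in hearts labelled knockout and 84.3% to 85.8% in control hearts. Lrp8 averaged 21.1 CPM in hearts labelled knockout and 1.26 CPM in control hearts, a small part of the sum in both.

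Per kilobase of RefSeq-linked transcript, the order of levels was nearly the same in both groups. Fabp3 was highest, at 10.95 ± 0.04 log2 CPM per kb in hearts labelled knockout and 11.28 ± 0.36 log2 CPM per kb in control hearts (SD, n = 3 each). Fabp4, Lpl and Cd36 followed at 8.74 to 9.14 in hearts labelled knockout and 8.98 to 9.52 in control hearts, and the ranges of Fabp4 and Lpl overlapped in both groups, those of Lpl and Cd36 in hearts labelled knockout. Gpihbp1, Slc27a1 and Vldlr came next at 7.12, 5.79 and 5.21 log2 CPM per kb in hearts labelled knockout and 6.86, 6.37 and 5.16 in control hearts, with no overlap between neighbours. Lrp8 and Angptl4 were lowest in both groups. Lrp8 lay at 2.83 and Angptl4 at 0.79 in hearts labelled knockout, while in control hearts Lrp8 lay at -1.47 and Angptl4 at 0.07, and the ranges of the pair overlapped in each group. Transcript lengths are annotated means for Vldlr, Gpihbp1 and Cd36 and the length of 1 transcript for each other gene, so the order is approximate.

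Other genes of the same pathway were taken from 5 lists with 80 names, of which 64 were in the table and 58 were tested. Of these, 5 rose, 1 fell and 52 were not past the test, which is 10.3% called beside 9.66% of all tested genes, with a median log2 difference of 0.02. The genes that rose encode surface receptors, a ligand and proteoglycans, and the one that fell activates fatty acids. Leaving out labelled knockout replicate 8 gave 12 calls, 6 higher and 6 lower. A fit without an intensity trend in the variance called 0 of these genes with limma, while limma-voom on the recovered reads called 6.

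Of 12 tested other members of the LDL receptor family, 2 rose and 0 fell (median log2 difference 0.21). Lrp1, a large endocytic receptor for remnant lipoproteins and many other ligands, had 9.70, 9.57 and 8.92 log2 CPM in replicates 6, 7 and 8 labelled knockout, against 8.34, 8.21 and 8.21 log2 CPM in control replicates 3, 4 and 5. It rose 2.21-fold (log2 difference 1.14 ± 0.18, SE, limma adjusted p = 0.0026). Sorl1, a sorting receptor of the same family that also binds the lipase, rose by 1.14 ± 0.24 on the log2 scale (limma adjusted p = 0.012, and 0.073 without control replicate 5). Lrp3 and Lrp4, named after their values were seen, had log2 differences of -0.77 ± 0.25 and -0.76 ± 0.27 (SE, limma adjusted p = 0.076 and 0.098). They were not past the test.

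Of 11 tested ligands, chaperones and adaptors of these receptors, 1 rose and 0 fell (median 0.20). It was Clu, the gene of clusterin, a secreted chaperone also known as apolipoprotein J and a ligand of several of these receptors, at 11.79, 12.05 and 10.06 log2 CPM in replicates 6, 7 and 8 labelled knockout and 8.99, 8.93 and 8.92 log2 CPM in control replicates 3, 4 and 5. Clu rose 5.1-fold (log2 difference 2.35 ± 0.38, SE, limma adjusted p = 0.0028). Without labelled knockout replicate 8 its log2 difference was 2.97, and without replicate 7 it was 1.97. A robust variance trend put the limma adjusted p of Clu at 0.074. Apoe and Reln, ligands of both Lrp8 and Vldlr named after their values were seen, had log2 differences of 0.38 ± 0.15 and 0.92 ± 0.30 (SE, limma adjusted p = 0.12 and 0.076). Selenop, the gene of selenoprotein P, had 0.24 ± 0.13 (SE, limma adjusted p = 0.29), and its groups overlapped. Apoe, Reln and Selenop were thus not past the test.

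Of 11 tested lipase cofactors and handling genes, 2 rose and 0 fell (median 0.03). Both encode syndecans, cell surface proteoglycans whose heparan sulfate chains can hold lipase and lipoproteins. Sdc4 rose by 1.36 ± 0.27 and Sdc1 by 1.12 ± 0.30 on the log2 scale (SE, limma adjusted p = 0.008 and 0.036). Sdc1 was not past the test without any 1 of control replicates 3, 4 and 5 or labelled knockout replicates 6 and 7 (adjusted p up to 0.13).

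Of 16 tested genes of fatty acid transport, binding and activation, 0 rose and 1 fell (median -0.01). Acsl1, the main long-chain acyl-CoA synthetase of the heart, had 8.28, 8.47 and 9.12 log2 CPM in replicates 6, 7 and 8 labelled knockout, against 9.60, 9.66 and 9.49 log2 CPM in control replicates 3, 4 and 5. It fell by 0.96 on the log2 scale (SE 0.19, limma adjusted p = 0.0076, and 0.056 without control replicate 4). Of 8 tested genes of endothelial control of fatty acid uptake, limma and limma-voom called 0 in either direction (median -0.32), and 3 had an unadjusted limma p under 0.05, all lower.

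**Figure D4:**
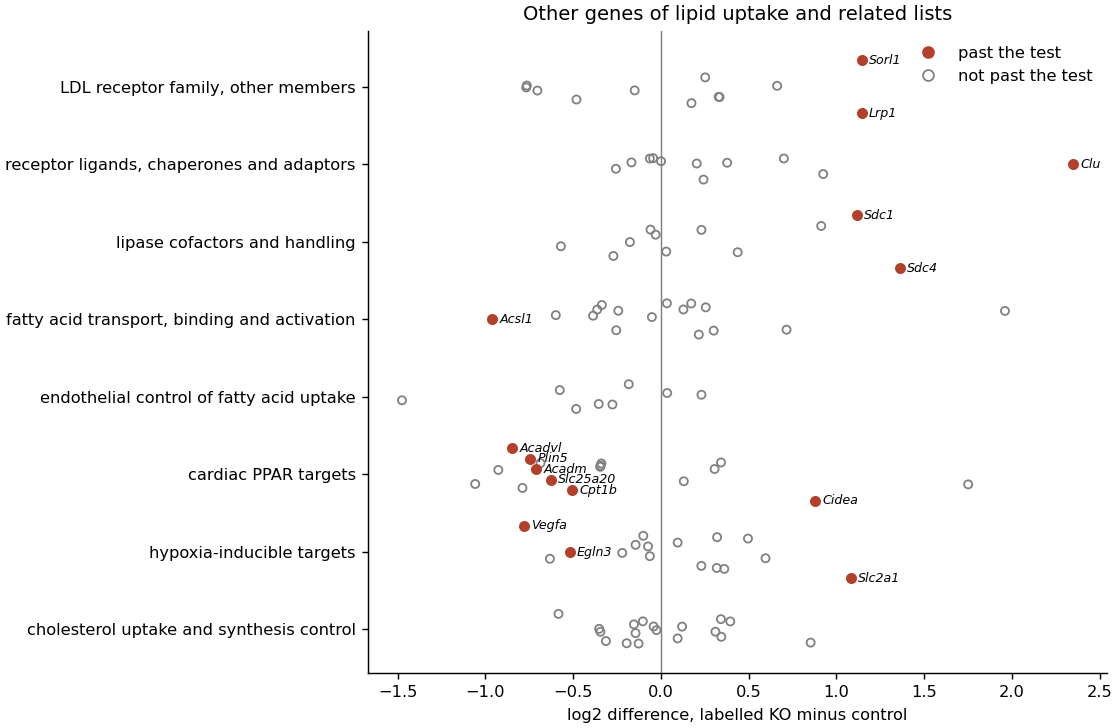
Log2 difference, hearts labelled knockout minus control hearts (x axis), of each tested gene in 8 lists without the 9 members (rows). Filled points passed the limma test with an adjusted p under 0.05. Clu lies at 2.35 and Acsl1 at -0.96, and most genes of every list are open points.

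Among 3 lists of genes under related control, cardiac targets of the PPAR nuclear receptors held the most calls, with 1 that rose and 5 that fell of 17 tested (35.3%, median -0.51), beside 9.66% of all tested genes. The cardiomyocyte markers were lower in the same libraries, with 4 of 8 that fell and a median log2 difference of -0.67, and their part in the values of this list was not tested. Acadvl, Slc25a20 and Acadm, which act in mitochondrial fatty acid oxidation, fell by 0.85, 0.63 and 0.71 on the log2 scale (limma adjusted p = 0.005, 0.012 and 0.013), and Plin5 and Cpt1b, named after their values were seen, by 0.75 and 0.51. Slc25a20 and Acadm were not past the test without any 1 of control replicates 3, 4 and 5 (adjusted p up to 0.085). Cidea, a lipid droplet gene, rose by 0.88 ± 0.18 (SE, limma adjusted p = 0.0092, and up to 0.059 without control replicate 4 or 5). Lpl, Cd36, Fabp3, Slc27a1 and Angptl4, also known as PPAR targets, had the differences given above. Of 16 tested hypoxia-inducible targets, 1 rose and 2 fell (median 0.02): Slc2a1, a glucose transporter gene, rose by 1.08, and Vegfa and Egln3 fell by 0.78 and 0.52 (limma adjusted p = 0.0063, 0.02 and 0.041). Neither Vegfa nor Egln3 was past the test without control replicate 4 or 5 or labelled knockout replicate 6 or 7, and Egln3 also not without control replicate 3 (adjusted p up to 0.18). Of 18 tested genes of cholesterol uptake and synthesis control, limma and limma-voom called 0 in either direction (median -0.07), and 3 had an unadjusted limma p under 0.05, 2 of them higher.

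These are whole hearts, in which fewer cells of a type and less RNA per cell cannot be told apart. The summed CPM of 8 cardiomyocyte markers was 77317 to 105966 in hearts labelled knockout and 123283 to 138153 in control hearts, and 4 of the 8 fell. For 11 endothelial markers it was 1408 to 1660 against 1737 to 1845 CPM, and for 7 capillary markers 126 to 184 against 187 to 219 CPM, where Kdr of the first list and Btnl9 of the other fell. The other 10 and 6 markers were not past the test, and the median log2 difference was -0.18 over the 11 and -0.50 over the 7. A sum can rest on 1 gene, and these sums were not repeated without Kdr or Btnl9. The part of these shifts in the lower values of Lpl, Fabp3, Slc27a1, Fabp4, Acsl1 and the PPAR targets was not tested. The summed CPM of 7 fibroblast markers was 3886 to 5317 in hearts labelled knockout and 2612 to 3146 in control hearts. Of these 7, 2 rose (Dcn and Col1a1). For 10 macrophage markers the sum was 1259 to 1436 against 1034 to 1125, and 0 of the 10 were past the test (median log2 difference 0.23). The part of fibroblast and macrophage markers in the higher values of Lrp8, Lrp1 and Clu was not tested.

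The 7 adipocyte markers in the table summed to 54.2 to 85.1 CPM in hearts labelled knockout and 85.2 to 150 CPM in control hearts, most of it from Lipe, which muscle also expresses. Of the 2 that were tested, Cfd was past the limma test as lower (adjusted p = 0.039) but not in limma-voom, with overlapping groups, and Lipe was not past it. Adipoq was at the floor in replicate 6, Plin1 in replicates 6 and 7, Retn in replicates 6 and 8, and Pck1 in all 3 libraries labelled knockout and in control replicate 5. The sum of the 7 markers was highest among the control libraries in replicate 3, where Lpl was also highest, while Fabp4 was highest in control replicate 4. Among the hearts labelled knockout the sum was highest in replicate 6, where both Lpl and Fabp4 were lowest. The part of these markers in the lower values of Fabp4 and Lpl was not tested. The 4 atrial markers in the table summed to 32.6 to 156 CPM in hearts labelled knockout and 139 to 432 CPM in control hearts. These ranges overlapped, 2 of the 4 fell, and their part in the results was not tested. Markers of mural cells and of erythroid cells overlapped between the groups, and the 3 hepatocyte markers in the table summed to at most 4.43 CPM in any library.

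**Figure D5:**
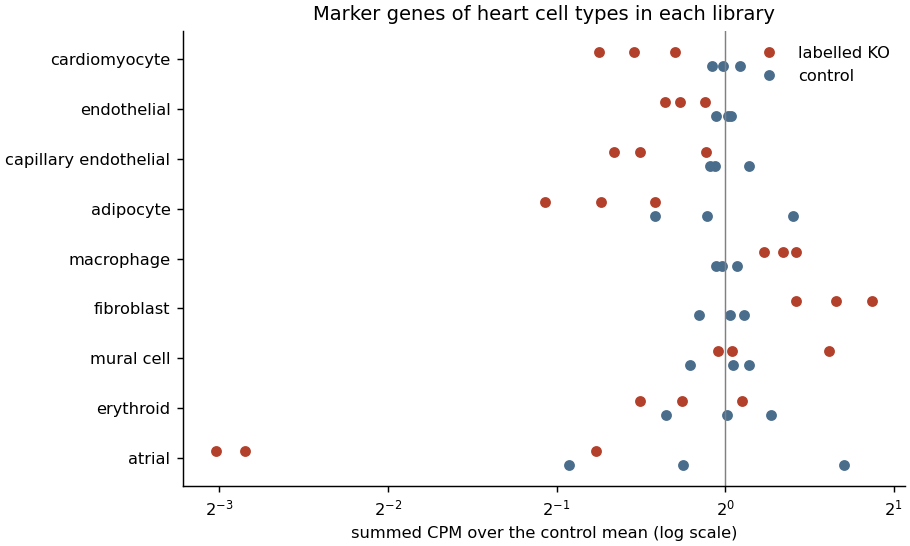
Summed CPM of marker genes of each heart cell type, divided by the mean of the control libraries (x axis, log scale), in each library. Hearts labelled knockout are drawn above control hearts in each row, and the hepatocyte list is left out. Cardiomyocyte, endothelial and adipocyte sums of the hearts labelled knockout lie left of the control sums, and fibroblast and macrophage sums lie right of them.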

How the data were processed

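The deposited table holds log2 CPM per gene and library, by its name and values. The submitters' processing notes name CASAVA, HISAT2, edgeR and the build mm10, with no version, role or order. All 6 columns shared a floor of -3.29 log2 CPM, so a constant had been added before deposit. Reads per gene were recovered from the steps between low values, of which 89.9% to 91.3% per library were whole within 0.01 reads; some genes gave fractions. The 12516 genes averaging 0 log2 CPM or more were tested with limma 3.58.1 in R 4.3.3, with an intensity trend, on the 3 libraries labelled knockout against the 3 control libraries, which leaves 4 residual degrees of freedom, and 1617 genes were left out. The fit was tested on simulated data. Each p measures only the spread between these libraries, which may be technical.

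The members and lists were chosen with earlier results of these data known. Named are the 9 members, Txn1, for each list the 4 smallest p past the test and changes of at least 2-fold, and the 3 genes nearest to each member. Some of these are not reported here. Positions are from GENCODE M21 (GRCm38). Alternatives were other filters, scalings, variance models, thresholds, limma-voom on the recovered reads, and each library left out.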

Additional observations from a re-analysis of the deposited data

How the results depend on the processing

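No paired analysis was possible because the groups share no replicate number. Over 15 other fits, all 133 differences of the members moved by less than 1 pooled within-group SD. With 3 libraries per group, leaving 1 out cannot move a difference by more than that. Other filters and variance trends leave a difference unchanged. This tally therefore does not show that the members were steady, and Angptl4 ranged from 0.075 to 1.65 with 1 library left out. The difference of Lrp8 was 3.26 with 1 CPM added before the log. The count over all genes was 121 without an intensity trend, 432 at an adjusted p under 0.01 and 403 to 2185 with 1 library left out. The uptake lists had 0 calls without the trend and 4 to 12 with 1 library left out. The members had 0 calls without the trend, and 1 at an adjusted p under 0.01, with at least 1.5-fold, or among genes averaging 3 log2 CPM or more, a filter that removes Lrp8 and Angptl4. With 1 library left out they had 1 to 5. Each of the 13 pathway genes chosen by the rule lost its call without the trend, where the cause was not tested. Clu was also not past the robust trend. No scaling moved the median of all tested genes by more than 0.011. Single members moved more, and with quantile normalization the log2 difference of Cd36 went from -0.23 to -0.07 and that of Fabp3 from -0.33 to -0.19. Depth limits Lrp8 in control hearts (5 to 35 reads) and Angptl4 (13 to 146 reads).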
